A study of Arabidopsis thaliana with 20 samples.

Results

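The 5 plastid genes of Arabidopsis thaliana described here are petA (ATCG00540), petG (ATCG00600), petN (ATCG00210), ccsA (ATCG01040) and cemA (ATCG00530), which were chosen by identifier and not by their counts. They are 5 of the 133 chloroplast genes and of the 32744 genes in the count table. RNA-Seq counts were obtained from rosettes of wild-type plants grown on soil, with ribosomal RNA removed and stranded libraries made from 3 µg of total RNA. Plants labelled N-limiting were watered with 2.5 mM nitrate and those labelled N-sufficient with 5 mM. Both groups shared the genotype, 3 days of stratification, 8 days of growth and 19 days on an automated growth platform. They also shared a soil water content of 60%, light of 15000 lux, 21 °C by day and 19 °C by night, and rosettes taken at Boyes stage 1.09. Each label has 10 replicates, and the counts of the N-sufficient library were the same as those of the N-limiting library of the same number for 32744 of 32744 genes in each of the 10 pairs. The series therefore holds 10 distinct libraries, the 2 nitrogen supplies cannot be compared, and the counts are given under the N-limiting label. Nothing in the tables themselves says which supply they belong to. The replicates are called biological, without a statement of the plants or pools behind each. The p-values are from permutation tests of correlations over these libraries and apply to them only.

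The cytochrome b6f complex of the thylakoid membrane passes electrons from plastoquinol to plastocyanin, between photosystem II and photosystem I, and pumps protons into the lumen as it does so. Its subunits are encoded by both genomes, so that the plastid supplies petA, petG and petN while the nucleus supplies the Rieske iron-sulfur protein PETC and the small subunit PETM. Cytochrome f, the product of petA, carries a haem that is bound covalently on the lumen side of the membrane, and ccsA encodes a membrane protein of the machinery that attaches it. The small subunits PetG and PetN each cross the membrane once and are known from tobacco to be needed for a stable complex. The gene cemA encodes an inner envelope protein whose loss impairs inorganic carbon uptake in the green alga Chlamydomonas, and it lies just upstream of petA.

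The positions and sequences below are from the RefSeq annotation of TAIR10.1, in which all 5 symbols were found once, each as 1 uninterrupted coding sequence on the plus strand of the chloroplast genome with 0 overlapping genes. The gene cemA lies at positions 60741 to 61430 (690 bases) and petA at 61657 to 62619 (963 bases), 226 bases further on and on the same strand. The gene petG lies at 65998 to 66111 (114 bases), 190 bases after petL. The gene petN lies at 28089 to 28178 (90 bases) and ccsA at 114461 to 115447 (987 bases), 217 bases before the oppositely oriented ndhD. The stretches shown carry the haem chemistry that links petA to ccsA, and the small subunits are printed whole because their length sets how their counts can be compared with those of the longer genes. Capitals mark the CXXCH haem attachment codons (56 to 60) of petA, the tryptophan-rich stretch (codons 257 to 264) of ccsA that is characteristic of haem-handling proteins, and the start and stop codons of petG and petN.
petA, chloroplast:61792-61866: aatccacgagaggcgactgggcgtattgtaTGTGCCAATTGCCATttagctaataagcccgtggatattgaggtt
ccsA, chloroplast:115199-115282: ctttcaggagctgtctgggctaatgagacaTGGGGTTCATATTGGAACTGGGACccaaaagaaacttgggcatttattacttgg
petG, chloroplast:65998-66111: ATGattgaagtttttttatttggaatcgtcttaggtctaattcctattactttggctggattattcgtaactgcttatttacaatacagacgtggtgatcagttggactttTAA
petN, chloroplast:28089-28178: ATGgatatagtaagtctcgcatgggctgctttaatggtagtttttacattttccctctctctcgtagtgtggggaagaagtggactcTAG

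The 10 libraries held between 41423334 and 60323158 counts (median 44010088). Chloroplast genes took 63.9% to 72.3% of them, and a single chloroplast gene, ATCG00020, took 53.4% to 62.0% of the chloroplast counts. The 5 genes together took 0.382% to 0.632% of the chloroplast counts (mean 0.531% ± 0.0827, SD, n = 10). Markers fixed for the rosette leaf summed to between 8298 and 10412 CPM over 4 genes, whereas 3 root, 3 flower and 2 seed markers summed to at most 0.0891, 0.159 and 0.0446 CPM, with EXPA7 of the root and CRC of the seed at 0 in all libraries. Counts were scaled by DESeq2 size factors computed over the chloroplast genes, and the scaled values are called normalised counts. In RNA of whole rosettes, fewer cells of a type and less RNA per cell cannot be told apart.

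The 5 genes differed in level when counts were divided by coding length. Expressed per kilobase of coding sequence and per 1000000 chloroplast counts, petN averaged 16945 ± 1368, petG 3770 ± 923, petA 1773 ± 340, cemA 1329 ± 468 and ccsA 743 ± 103 (SD, n = 10). On this scale the subunit genes of the complex thus stood above the haem attachment gene ccsA, and the shortest gene had the highest value. Before division by length petG had fewer counts than ccsA in each library (ratio 0.413 to 0.672) and fewer than cemA (0.371 to 0.873). The step between petN and petG was 2.21 ± 0.36 on the log2 scale, had the same sign in 10 of 10 libraries, and the ranges of the 2 genes over libraries did not overlap. The step between petG and petA was 1.07 ± 0.36 (10 of 10 libraries), that between petA and cemA 0.49 ± 0.34 (10 of 10), and that between cemA and ccsA 0.75 ± 0.41 (9 of 10). For each of these 3 steps the ranges of the neighbouring genes overlapped. A transcript that extends past the coding sequence makes a short gene look high on this scale. With 100 bases added to every coding length, petG averaged 2008 and petN 8026, and the step between petG and petA was 0.30 ± 0.36, with petG higher in 9 of 10 libraries. The order of petN, petG, petA, cemA and ccsA by mean was the same with and without these 100 bases. Longer additions were not tried, and the step between petG and petA shrank with the added length, so their order is not settled. The places of petG above cemA and ccsA also rest on the division by length and are not settled.

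**Figure D1:**
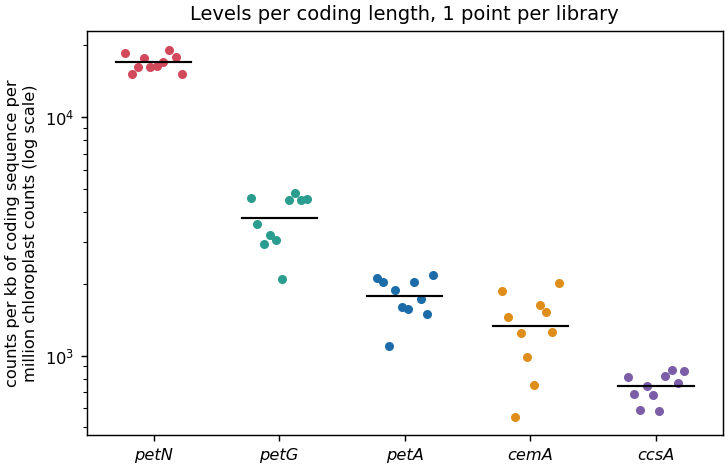
Levels of the 5 genes per kilobase of coding sequence and per 1000000 chloroplast counts, on a log axis, with 1 point for each of the 10 libraries (replicates 1 to 10 from left to right) and a bar at the mean. The petN points lie apart from all others at a mean of 16945, and the points of ccsA are lowest at a mean of 743.

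The gene petA, which encodes cytochrome f, had a lowest normalised count of 41223 (replicate 3), a median of 53196 and a highest of 58875 (replicate 7), with a mean of 52230 ± 5673 (SD, n = 10). Replicates 3 and 9 were low and the other libraries lay between 48784 and 58875. The small subunit gene petN had a lowest value of 36719 (replicate 10), a median of 48265 and a highest of 56970 (replicate 3). The library lowest in petA was the library highest in petN, and 6 of the libraries lay between 45059 and 50945. The small subunit gene petG had a lowest value of 8358 (replicate 6), a median of 13434 and a highest of 16181 (replicate 9). Its values in replicates 1, 7, 8, 9 and 10 were the 5 highest, from 13855 to 16181. The haem attachment gene ccsA had a lowest value of 20218 (replicate 6), a median of 22668 and a highest of 25212 (replicate 8), so its highest library stood only 1.25-fold above its lowest. The envelope protein gene cemA had a lowest value of 14913 (replicate 3), a median of 28772 and a highest of 37350 (replicate 10), a 2.50-fold range, with replicates 3 and 6 at the low end.

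**Figure D2:**
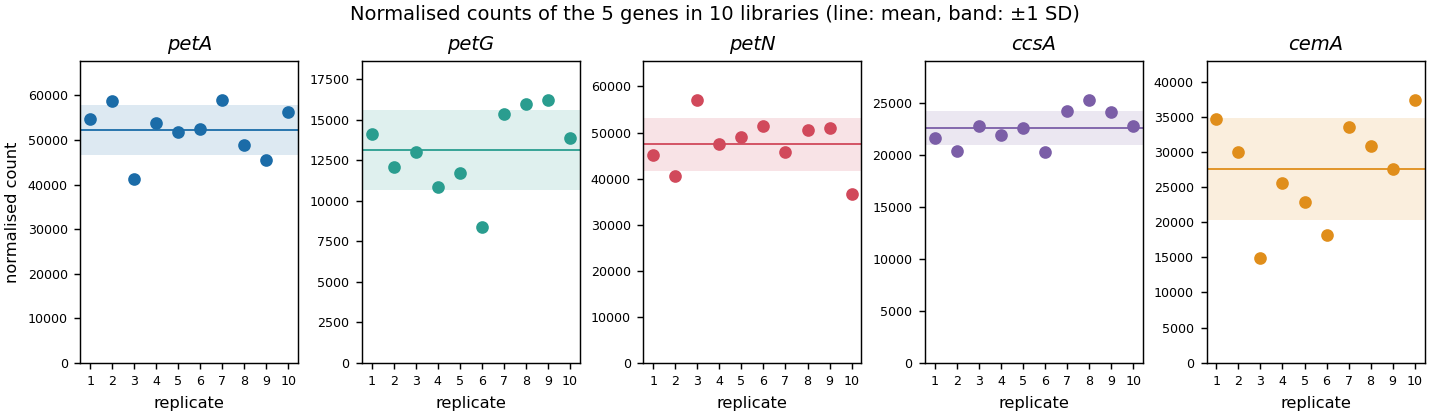
Normalised counts (y axes from 0, 1 panel per gene) in replicates 1 to 10, with a line at the mean and a band of 1 SD on each side. The points of ccsA stay within 20218 to 25212, whereas those of cemA run from 14913 in replicate 3 to 37350 in replicate 10.

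The spread between libraries also differed among the 5 genes. The coefficient of variation (CV, the SD as a percentage of the mean) was 7.20% ± 1.43 for ccsA, 10.9% ± 2.86 for petA, 12.2% ± 3.27 for petN, 18.8% ± 5.01 for petG and 26.4% ± 6.40 for cemA (± jackknife SE, n = 10 libraries). Counting error alone would give 0.431% to 0.858%, so depth is not what limits these values. Over the 128 chloroplast genes that averaged 100 counts or more the CV ranged from 4.50% to 95.8% with a median of 14.4%. Among the 127 others, 8.66% had a smaller CV than ccsA and 86.6% a smaller CV than cemA. The shares for petA, petN and petG were 27.6%, 33.9% and 75.6%. Thus the gene of the envelope protein was among the more variable chloroplast genes and the haem attachment gene among the steadier ones. Without replicate 3 the CV of petA was 7.74%. Scaling by the total chloroplast count, which the single gene ATCG00020 dominates, changed these values. They were then 13.9% for ccsA, 19.2% for petA, 8.07% for petN, 24.5% for petG and 35.2% for cemA. The size of the CV of ccsA thus depended on the scaling, and petN had the lowest of the 5 on this scale. The place of ccsA among all chloroplast genes was not computed there.

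**Figure D3:**
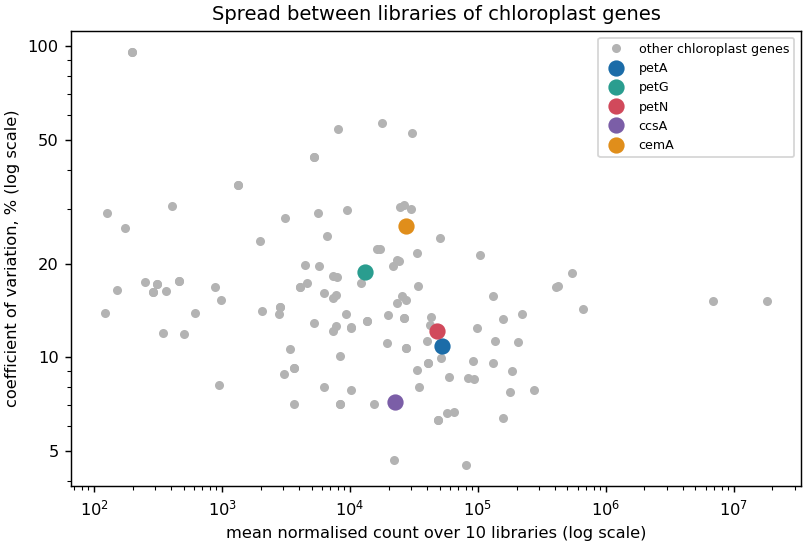
Coefficient of variation over 10 libraries (log y axis) against the mean normalised count (log x axis) for the 128 chloroplast genes averaging 100 counts or more, with the 5 genes in colour and the others in grey. The point of cemA (26.4%) lies high and that of ccsA (7.20%) low among the 128 genes, although some genes with counts similar to those of cemA lie higher.

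Ratios of 2 counts within a library do not depend on the scaling. The ratio of cemA to petA, the neighbours on the plus strand, had a lowest value of 0.345 (replicate 6), a median of 0.541 and a highest of 0.665 (replicate 10), with a mean of 0.524 ± 0.116 (SD, n = 10). The libraries were thus spread 1.92-fold in the proportion of these neighbours, with replicates 3 and 6 low and replicates 1, 8 and 10 high. The SD of the log2 ratio was 0.34, and 54.4% of the 8128 pairs of chloroplast genes had a smaller one (median 0.32), so the proportion of these adjacent genes was no steadier than that of an average pair. The ratio of petG to ccsA had a lowest value of 0.413 (replicate 6), a median of 0.600 and a highest of 0.672 (replicate 9). Its log2 SD of 0.22 was smaller than that of most pairs, 24.3% of which were steadier. The ratio of petN to ccsA was steadier still, with a log2 SD of 0.19 (17.5% of pairs smaller). The least steady of the 10 ratios among the 5 genes was petN to cemA, which ran from 0.983 (replicate 10) to 3.82 (replicate 3), with a log2 SD of 0.58 (84.2% of pairs smaller). The ratio of petN to ATCG00020, the most counted gene, had a CV of 7.03% and a range from 0.00236 to 0.00288, and 2.93% of all pairs had a smaller log2 SD than its 0.10.

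**Figure D4:**
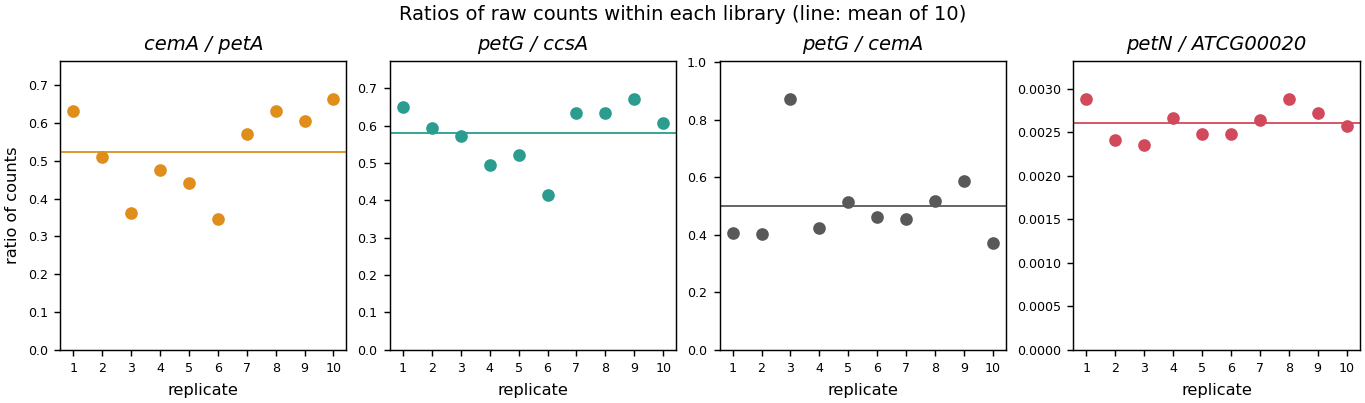
Ratios of raw counts in replicates 1 to 10 (y axes from 0, line at the mean of 10 libraries) for cemA over petA, petG over ccsA, petG over cemA and petN over ATCG00020. The ratio of cemA to petA varies between 0.345 and 0.665, the ratio of petG to cemA is 0.873 in replicate 3, and petN over ATCG00020 stays between 0.00236 and 0.00288.

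Co-variation between the genes was measured as the Pearson correlation of log2(normalised count + 1) over the 10 libraries, with a two-sided permutation test of 100000 resamples. Benjamini-Hochberg adjustment ran over the 640 relations of the 5 genes with the chloroplast genes of at least 10 mean counts. All genes of a library share its depth and its scaling factor. Over all 8515 pairs of such chloroplast genes, 14.9% passed an adjusted p of 0.05. Of the 10 pairs among the 5 genes, 1 passed, petG with ccsA. Here r was 0.81 (permutation p = 0.00306, adjusted p = 0.0301, n = 10) and Spearman's rho was 0.77 (permutation p = 0.0123, adjusted p = 0.0783). Without the 2 libraries farthest from the median petG count r was 0.78. Both genes were lowest in replicate 6 and highest in replicates 7, 8 and 9. The call rested on the scaling, since r was 0.69 (adjusted p = 0.145, permutation test) with TMM factors over all genes and 0.67 (adjusted p = 0.162) with DESeq2 size factors over all genes. It was also lost without replicate 3, 6, 7, 8, 9 or 10, with r between 0.74 and 0.80 in those fits and adjusted p (permutation test) of up to 0.116.

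The genes petA and petN, both of which encode subunits of the complex, were negatively correlated by rank on the chloroplast scale. Their r was -0.78 (permutation p = 0.0082, adjusted p = 0.0543, n = 10) and their rho -0.84 (permutation p = 0.00362, adjusted p = 0.043), so the relation passed the threshold by rank and not by r. Without the 2 libraries farthest from the median petA count r was -0.68. On the scale of all genes it was -0.27 with TMM factors and -0.25 with DESeq2 size factors, and with the total chloroplast count it was -0.01, so the negative value was much smaller on each of these other scales. The genes petN and cemA had r = -0.77 (permutation p = 0.0102, adjusted p = 0.0621, n = 10) and rho = -0.81 (permutation p = 0.00728, adjusted p = 0.059). This relation did not pass the threshold, and its r was -0.70 with TMM factors and -0.71 with DESeq2 size factors over all genes, but 0.19 with the total chloroplast count. The neighbours petA and cemA had r = 0.66 (permutation p = 0.0382, adjusted p = 0.127, n = 10) and rho = 0.64 (permutation p = 0.0546, adjusted p = 0.183), and 0.42 without the 2 libraries farthest from the median petA count. It did not pass either, except with the total chloroplast count (r = 0.90, adjusted p = 0.00323, permutation test). Without replicate 3, the library lowest in both genes, r between petA and cemA was 0.27 (adjusted p = 0.702, permutation test). The other 6 pairs had r between -0.34 and 0.56, none of which passed.

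**Figure D5:**
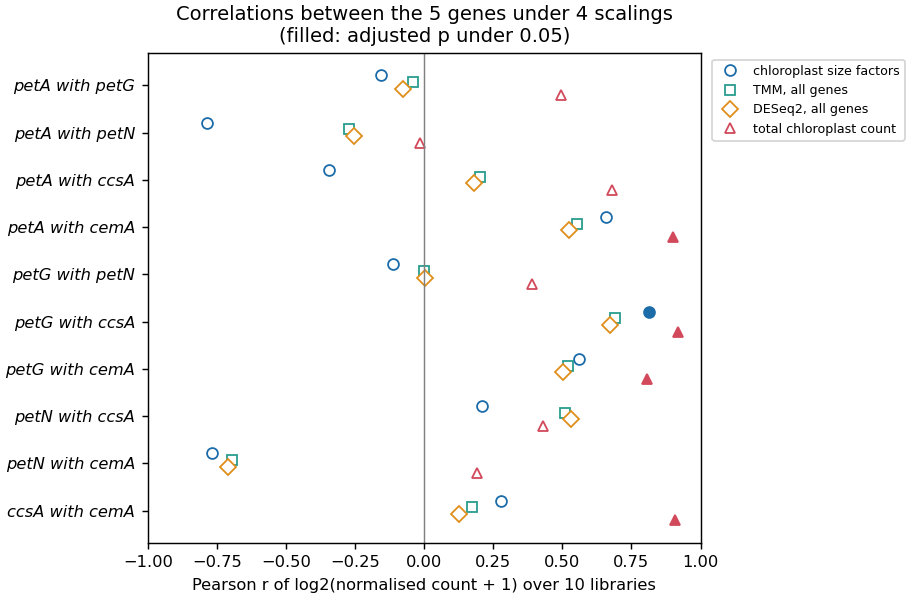
Pearson r over 10 libraries (x axis) for the 10 pairs among the 5 genes (rows) under 4 scalings (symbols), filled where the adjusted p of the permutation test was under 0.05. The pair petG with ccsA is positive under each scaling, at 0.81, 0.69, 0.67 and 0.92, whereas petA with petN moves between -0.78 and -0.01.

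Over the whole chloroplast table the 5 genes differed in how many genes followed them. Against the 14.9% of all pairs, cemA passed with 43 of 130 chloroplast genes (33.1%, 18 positive and 25 negative), petN with 26 (18 positive and 8 negative), petA with 13 (all positive), petG with 9 (7 positive and 2 negative, with 3 of the 9 in separate clusters of libraries) and ccsA with 2 (both positive). Genes whose counts differed by no more than 1% plus 0.5 counts in each library were counted separately, and with each such set taken once cemA had 40 and petN 20. At an unadjusted permutation p under 0.05 the counts were 73, 61, 48, 25 and 13. The share of all pairs at that threshold was not computed. The median over the 131 genes was 17 calls per gene, so cemA and petN lay above it and the other 3 genes below it on this scale. With the total chloroplast count the order changed, to 74 for cemA, 65 for petA, 65 for ccsA, 36 for petG and 17 for petN. On that scale all 74 relations of cemA were positive, and 3 of the 21 that passed on both scales had the opposite sign. With TMM factors over all genes cemA passed with 12 genes, petN with 18, petA with 14, petG with 5 and ccsA with 3. All of these were positive, so the negative relations of cemA, petN and petG did not pass on that scale. These counts also changed when single libraries were left out. The share over all pairs was computed only with the chloroplast size factors and all 10 libraries. Counts under other scalings or without a library therefore have no background to be read against. Without replicate 3 the counts were 15 for cemA, 3 for petN, 2 for petA and 0 for ccsA, and without replicate 10 they were 18, 1, 5 and 0 for the same genes. Without replicate 6 they were 19, 5, 5 and 0, and 3 for petG. Without replicate 8 they were 23, 13, 5 and 0, and without replicate 9 they were 24, 8, 2 and 0. Without replicate 1 they were 26 for cemA and 8 for ccsA, without replicate 5 the count was 1 for ccsA, and without replicate 7 it was 0 for ccsA.

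The genes most like each of the 5 over the libraries are given by identifier, because no table used here pairs the other chloroplast identifiers with names. The closest chloroplast gene of cemA was ATCG01080, with r = 0.97 (permutation p = 4e-05, adjusted p = 0.00498, n = 10), and 0.92 without the 2 libraries farthest from the median cemA count. It was called in each of the 10 fits that left out 1 library and under each scaling, with r between 0.95 and 0.99 over the scalings. For petG the closest was ATCG00080 (r = 0.96, permutation p = 7e-05, adjusted p = 0.00498, n = 10), which likewise was called in 10 of 10 such fits. ATCG00080 was also the second closest gene of ccsA (r = 0.80, permutation p = 0.00574, adjusted p = 0.0448, n = 10), but that call was made in 2 of 10 such fits and was lost with TMM factors (r = 0.56, adjusted p = 0.29) and DESeq2 size factors over all genes (r = 0.53, adjusted p = 0.336). For petN it was ATCG00620 (r = 0.93, permutation p = 0.00014, adjusted p = 0.00686, n = 10), called in 10 of 10 fits. For petA it was ATCG00790 (r = 0.92, permutation p = 0.00026, adjusted p = 0.00924, n = 10), called in 9 of 10 fits. The log2 ratio of petA to ATCG00790 had an SD of 0.07, the smallest of petA with any chloroplast gene, whereas the smallest SD for cemA was 0.13 and for petG 0.18.

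Genes next to the 5 in identifier number gave a mixed picture. The identifier just before cemA, ATCG00520, had a lowest normalised count of 12328 (replicate 3), a median of 22082 and a highest of 26097 (replicate 10). Its r was 0.91 with cemA (permutation p = 0.00022, adjusted p = 0.00828, n = 10; rho = 0.90) and 0.87 with petA (permutation p = 0.00145, adjusted p = 0.0244, n = 10; rho = 0.79). By rank the relation with cemA passed (adjusted p = 0.0223, permutation test) and that with petA did not (adjusted p = 0.0621). Both Pearson values passed under all 4 scalings, and both were above the 0.66 of petA with cemA, a difference that was not tested. In the RefSeq annotation the gene before cemA on the same strand is ycf4, 414 bases away, and its identifier was not matched. The relation with petA was called in 7 of the 10 fits that left out 1 library and that with cemA in 9. The identifier after petA, ATCG00550, had r = -0.88 with cemA (permutation p = 0.00067, adjusted p = 0.0138, n = 10), which was -0.58 (adjusted p = 0.255, permutation test) with TMM factors over all genes, and its r with petA was -0.58 (adjusted p = 0.205, permutation test). Near ccsA in number, ATCG01030, the identifier before it, averaged 47.9 normalised counts and had r = 0.58 with ccsA (permutation p = 0.0809, adjusted p = 0.212, n = 10). ATCG01020 had r = 0.92 with petG (permutation p = 0.00048, adjusted p = 0.0138, n = 10) and 0.75 with ccsA (permutation p = 0.0115, adjusted p = 0.0636, n = 10), and ATCG01050 had r = 0.62 with ccsA (permutation p = 0.0526, adjusted p = 0.152, n = 10).

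The identifiers next to petN (ATCG00220) and petG (ATCG00590) and ATCG00510 fell into separate clusters of libraries, so no pooled r with them is given. They were among the relations over which p-values were adjusted, and all 3 are among the 9 genes that passed with petG. ATCG00220 lay between 23656 and 32562 normalised counts in replicates 1, 7, 8, 9 and 10 and between 4436 and 10019 in the others. ATCG00590 lay between 10619 and 13508 in the same replicates and between 2112 and 4965 in the others. These replicates were also the 5 highest in petG. The gene petN, whose identifier precedes ATCG00220, did not separate them, with 36719 in replicate 10 and 50945 in replicate 9. The annotation places the next gene after petN, psbM, on the opposite strand.

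On the chloroplast size factors, some of the variation of petN and cemA ran with properties of the whole library. Of 131 chloroplast genes, 17.6% passed against the share of ATCG00020 in the chloroplast counts, 28.2% against the share of chloroplast genes in all counts and 0.763% against the total count, with adjustment over 393 relations. The gene petN had r = 0.96 with the share of ATCG00020 (permutation p = 0.00016, adjusted p = 0.0105, n = 10) and rho = 0.83 (permutation p = 0.00458). Without the 2 libraries farthest from the median share r was 0.86. These values set petN on chloroplast size factors against a share of the total chloroplast count. With both scaled by that total, where the counts of ATCG00020 stand for its share, r of the log2 values was 0.50 and did not pass. With the counts of ATCG00020 themselves petN had r = 0.88 (adjusted p = 0.0169, permutation test), 0.93 with TMM factors over all genes and 0.50 (adjusted p = 0.242) with the total chloroplast count. With the same counts cemA had r = -0.95 (permutation p = 2e-05, adjusted p = 0.00498, n = 10) and rho = -0.95, but r = -0.75 (adjusted p = 0.0897, permutation test) with TMM factors and -0.76 (adjusted p = 0.0828) with DESeq2 size factors over all genes, and -0.72 (adjusted p = 0.0511) with the total chloroplast count. The gene cemA had r = -0.82 with the chloroplast share (permutation p = 0.00343, adjusted p = 0.0355, n = 10) and rho = -0.72 (permutation p = 0.0227), and -0.72 without the 2 farthest libraries. Of these 15 relations of the 5 genes the other 13 did not pass, and none of the 5 genes passed against the total count. Whether the library composition has a part in the levels of petN and cemA was not tested. The labels give no sequencing date or batch.

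Nuclear genes were compared with the 5 plastid genes on nuclear size factors, since the complex needs proteins of both genomes. Of 18255 nuclear genes averaging 10 counts or more, 0 passed for each of petA, petG, petN, ccsA and cemA (percentage passing 0 for each), with Benjamini-Hochberg adjustment of the permutation test over 91275 relations and a lowest adjusted p of 0.145. Spearman's rho also gave 0 for each. The smallest permutation p that 100000 resamples could give was 1e-05, and over 91275 relations a single relation at that value could not pass. Passing needed many relations at or near it together. The 0 therefore does not show that no nuclear gene followed the 5. At an unadjusted permutation p under 0.05 there were 3449 genes for cemA (18.9%), 2119 for petA (11.6%), 2042 for petN (11.2%), 968 for petG (5.30%) and 754 for ccsA (4.13%). The nuclear gene with the highest r was AT5G55220 for petA (0.97), AT3G12940 for petG (0.93), AT5G61310 for petN (0.95), LUL1 (AT5G03200) for ccsA (0.90) and ABCB27 (AT5G39040) for cemA (0.96). The lowest r was that of DSS1(I) (AT1G64750) for petA (-0.96), RPS14 (AT2G34520) for petG (-0.96), AT5G27950 for petN (-0.95), NS1 (AT4G17300) for ccsA (-0.90) and YLMG1-2 (AT4G27990) for cemA (-0.96). These 10 are the extremes of many relations, and none passed.

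A list of 25 nuclear partner genes covered subunits of the complex, its electron carriers, cyclic electron flow, haem attachment and assembly, and RNA factors. By the same permutation test and adjustment, 0 of 25 passed for any of the 5 plastid genes. The smallest p given above limited these calls too, so the 0 does not show that the partner genes were unrelated to the 5. At an unadjusted p under 0.05 there were 6 of 25 each for petA, petN and cemA and 0 each for petG and ccsA. The shares over all nuclear genes tested were 11.6%, 11.2% and 18.9% for petA, petN and cemA. For petG and ccsA they were 5.30% and 4.13%. The Rieske protein gene PETC had 15603 ± 2232 normalised counts (12395 to 18052) and the small subunit gene PETM 13042 ± 1227 (10928 to 15552, SD, n = 10). The median CV of the 25 genes was 14.1%, beside 12.9% for the 12262 nuclear genes averaging 100 counts or more. The leaf ferredoxin-NADP reductase gene LFNR2 had the highest r of the list with petA, 0.90 (permutation p = 0.00107, adjusted p = 0.205, n = 10). The kinase gene STN7, which acts in state transitions, had the highest r with cemA, 0.88 (permutation p = 0.00055, adjusted p = 0.194, n = 10), and the lowest with petN, -0.79 (permutation p = 0.00854, adjusted p = 0.313, n = 10). PGR3 encodes a pentatricopeptide repeat protein that is known for its part in stabilising petL RNA. It had r = 0.82 with petA, 0.84 with cemA and -0.78 with petN, with adjusted p (permutation test) of 0.282, 0.248 and 0.315. Without the 2 libraries farthest from the median count of the plastid gene r was 0.39, 0.45 and -0.88. For the other RNA factors, HCF152 and CRP1, r was -0.15 and 0.23 with petA and 0.20 and 0.62 with cemA. With petN it was -0.09 and -0.32. Among the 9 genes of haem attachment and assembly, CCS1, which works together with the product of ccsA, had r = -0.26 with ccsA (permutation p = 0.458, adjusted p = 0.832, n = 10) and 0.69 with petA (permutation p = 0.025, adjusted p = 0.407, n = 10), near the 0.69 of the assembly factor gene CCB1 with petA. The lowest r with petA was that of PETM (-0.49), which had the highest with petN (0.61). The lowest with cemA was that of the plastocyanin gene PETE1 (-0.75). With petG the range was -0.58 (the ferredoxin gene FD2) to 0.37 (STN7). With ccsA the range over the 25 genes was -0.60 (CCB1) to 0.20 (CRP1).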

How the data were processed

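Per the labels, total RNA of wild-type Arabidopsis rosettes was depleted of ribosomal RNA and sequenced from stranded libraries. The authors deposited raw counts of reads per gene, 1 column per library, without normalization. The submitters' processing notes name STAR and TAIR10, and the files carry the layout of featureCounts. Versions, the annotation, the strand setting and the treatment of reads with several alignments are not given in the sources used here. In BLAST 2.17.0 searches, copies outside the chloroplast genome were found for 159 bases of ccsA (16.1%, chromosome 4, 98.7% identity) and 38 bases of cemA (5.51%, chromosome 3, 94.7%), and none for petA, petG or petN.

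The series text gives 5 replicates where the labels give 10, and 10 were used. The N-sufficient files repeat the N-limiting counts, so the planned edgeR comparison was not run and the 10 libraries were used under the N-limiting label, although their column names do not state the supply. The genes, lists and tests were chosen with earlier results of these data known. Size factors were computed with DESeq2 1.42.0 over chloroplast genes, and over nuclear genes for these. Alternatives were TMM factors from edgeR 4.0.16, DESeq2 size factors over all genes, the total chloroplast count, linear values, a pseudocount of 10 in place of 1, Spearman's rho, count minimums of 1 and 100 in place of 10, and each replicate left out. Correlations and permutation tests used numpy 2.4.6 and scipy 1.17.1 in Python 3.11.15, and the tests were tested on simulated data. The genes named were the 5, the 2 chloroplast and 4 nuclear genes at the extremes of r for each, the neighbouring identifiers and the 25 partner genes, of which some are printed. From the last of these lists the extremes for each gene are given, and PGR3, CCS1 and CCB1 were added after their values were seen. A gene whose libraries left an inner gap of over 0.3 of its range, with at least 3 libraries on each side, was taken as clustered. Depths between 41423334 and 60323158 counts per library put the counting error of the 5 genes below 1% of each mean. For these genes this leaves the spread between libraries as the limit on precision. Counting error is larger for genes with fewer counts, such as ATCG01030 with 21 to 86 counts per library, and was not computed for them.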

Additional observations from a re-analysis of the deposited data

Results flagged for a closer look

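The ratio of petG to cemA counts was 0.873 in replicate 3, against 0.371 to 0.586 in the other 9 libraries, and the gap to the nearest library passed Dixon's critical value for 10 samples. It was the only one of 30 ends tested over 15 measures to do so, and chance flags about 1 group in 20. In replicate 3, cemA was at its lowest normalised count of 14913 while petG was at 13012, near its median of 13434. The gap of a ratio relative to its range changes when the ratio is inverted or put on a log scale. The inverse and the log of this ratio were not tested, so the flag holds only for petG over cemA as written. The part of this library in the result was not tested beyond the fits that left it out.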

How the results depend on the processing

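No paired analysis was possible because the N-limiting and N-sufficient libraries of the same number hold the same counts, and the planned nitrogen comparison with its alternatives was not run for that reason. Of the relations between the 5 genes, none passed with opposite signs under 2 settings, while 3 relations of cemA with other chloroplast genes did so with the total chloroplast count. Over the alternatives that kept all libraries 107 of 140 values stayed on their side of the threshold or within their spread. Per 1000000 counts of all genes in place of chloroplast genes, the mean levels were 1161 in place of 1708 for petA, 292 in place of 429.8 for petG, 1041 in place of 1525 for petN and 499.6 in place of 734 for ccsA. With 100 bases added to the coding length, petG had 2008 and petN 8026 per kilobase. The CV of ccsA was 10.4% with TMM and 10.3% with DESeq2 size factors over all genes. With the total chloroplast count the CV was 19.2% for petA, 24.5% for petG, 8.07% for petN, 13.9% for ccsA and 35.2% for cemA.

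The r of petG with ccsA was 0.69 with TMM and 0.67 with DESeq2 size factors over all genes, and rho was 0.77. With the total chloroplast count r passed for petA with cemA (0.90), petG with cemA (0.81) and ccsA with cemA (0.91). On the linear scale r passed for petA with petN (-0.82) and petN with cemA (-0.80), and by rank petA with petN passed (-0.84). Chloroplast genes passing numbered 5 for petG and 12 for cemA with either scaling over all genes. With the total chloroplast count they numbered 65, 36, 17, 65 and 74 for petA, petG, petN, ccsA and cemA, of which 64, 32, 11, 61 and 74 were positive. By rank they numbered 8 for petA and 1 for ccsA, with 5 of 8 positive for petA, 12 of 23 for petN and 15 of 30 for cemA. The share of all chloroplast pairs passing was not computed under these settings.

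In the fits that left out 1 replicate, the CV was 7.74% to 11.8% for petA, 13.8% to 19.8% for petG, 9.68% to 13.0% for petN, 6.22% to 7.73% for ccsA and 20.7% to 28.3% for cemA. The r of petG with ccsA was 0.74 to 0.88, of petA with petN -0.84 to -0.68, of petN with cemA -0.84 to -0.67 and of petA with cemA 0.27 to 0.75. It passed for petN with cemA without replicate 2 (-0.80). Chloroplast genes passing numbered 2 to 16 for petA, 3 to 11 for petG, 1 to 29 for petN, 0 to 8 for ccsA and 15 to 43 for cemA, and nuclear genes 0 in each fit. The limit that the number of resamples set on nuclear calls held in these fits too. The share of all chloroplast pairs passing was not computed in these fits, and the cause of these differences was not tested.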
